A study of Mus musculus with 6 samples.

Results

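10 genes of drug and toxin handling were followed in the epithelium of the mouse small intestine. They are 6 cytochromes P450 (Cyp3a11, Cyp3a13, Cyp3a25, Cyp2c65, Cyp2b10 and Cyp2d26), 2 conjugating enzymes (Ugt2b5 and Sult1b1) and the nuclear receptors Nr1i2 and Nr1i3. All probe sets of an Affymetrix expression array that the platform annotation pairs with one of these genes and no other were taken, which gave 13 probe sets for the 10 genes, out of 18193 genes with a probe set of their own. The study compared 6 samples of small intestinal epithelium, on 1 array each, taken at an age of 14 days from C57BL/6 mice by detaching the cells with EDTA. In 3 samples, called replacement here, the genotype was Ecadflox/Ncad;Vil-Cre: a recombinase under the villin promoter, active in gut epithelium, acts on the floxed E-cadherin allele, so that the cells carry N-cadherin and no E-cadherin. The other 3 samples, called control, came from E-cadherin-positive littermates whose alleles are not given further. The labels do not say that each sample came from its own animal, so p-values measure only the spread between these samples.

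Cytochromes P450 are heme enzymes of the endoplasmic reticulum that oxidize drugs, plant compounds, steroids and bile acids. UDP-glucuronosyltransferases such as Ugt2b5 and sulfotransferases such as Sult1b1 then attach a sugar acid or a sulfate, which makes the products easier to export. Nr1i2, the pregnane X receptor, and Nr1i3, the constitutive androstane receptor, bind DNA as partners of retinoid X receptors and are known to switch on Cyp3a and Cyp2b genes when foreign compounds or bile acids are present. In the gut these enzymes form a first barrier to compounds taken up with food.

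The 3 Cyp3a genes did not move alike. The letters upstream of them are shown as a description, and their part in these differences was not tested. Cyp3a11 and Cyp3a25 are direct neighbours, with 0 protein-coding genes between them, whereas 126 lie between Cyp3a11 and Cyp3a13. The stretches below run 5′ to 3′ up to the annotated gene start, from RefSeq (GRCm38.p6, minus strand). They are chr5:145879855-145880104 for Cyp3a11, chr5:146009645-146009868 for Cyp3a25 and chr5:137921620-137921869 for Cyp3a13. The stretch of Cyp3a13 lies inside the gene, since another annotated start is 3991 bases further upstream. Capitals mark AGGTCA and AGTTCA, the core motifs that nuclear receptors of this kind read, on either strand (TGACCT and TGAACT on the other).
Cyp3a11: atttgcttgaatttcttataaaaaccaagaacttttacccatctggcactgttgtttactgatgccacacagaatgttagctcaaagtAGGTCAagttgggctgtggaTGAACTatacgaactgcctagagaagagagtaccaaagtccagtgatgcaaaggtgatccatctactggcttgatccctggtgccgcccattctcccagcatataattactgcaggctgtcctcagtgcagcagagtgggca
Cyp3a25: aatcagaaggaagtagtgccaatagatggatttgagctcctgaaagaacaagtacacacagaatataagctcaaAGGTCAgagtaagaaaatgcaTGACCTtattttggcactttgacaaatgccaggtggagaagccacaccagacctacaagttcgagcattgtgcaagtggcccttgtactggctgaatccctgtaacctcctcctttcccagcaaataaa
Cyp3a13: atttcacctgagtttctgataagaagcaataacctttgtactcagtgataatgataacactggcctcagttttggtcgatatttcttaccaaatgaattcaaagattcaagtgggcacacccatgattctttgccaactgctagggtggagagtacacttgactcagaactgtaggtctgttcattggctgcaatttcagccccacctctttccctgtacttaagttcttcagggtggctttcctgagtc
Cyp3a11 and Cyp3a25 each held 2 core motifs that face each other, 14 bases apart in Cyp3a11 and 15 in Cyp3a25. The stretch of Cyp3a13 held none, and the bases upstream of its other annotated start were not searched. Only exact letters were searched, so looser matches would be missed. Paired motifs in opposite directions were not counted over all windows. Within 250 bases upstream of a start, AGGTCA occurred in 14.0% of 32851 RefSeq windows and in 4 of the 10 genes (Cyp3a11, Cyp3a25, Ugt2b5 and Sult1b1). AGTTCA occurred in 11.8% of windows and in 2 of the 10 genes (Cyp3a11 and Sult1b1). Paired core motifs in the same direction with 1, 3 or 4 bases between them, called DR1, DR3 and DR4, were in no window of the 10 genes, and each was in under 0.1% of all windows (0.067%, 0.0122% and 0.0244%). A match is a description of letters, and no binding was measured.

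Each array gave 45101 probe set intensities, and between 55.1% and 61.8% of them reached 16, the floor below which values were set to 16. Control 2 and control 3 were nearly alike: over 5109 bright probe sets their log2 ratio had an SD of 0.115, against 0.347 to 0.733 for every other pair of arrays. For 12 bright hybridization controls, which carry only array noise, this pair gave 0.0431 and all pairs 0.0431 to 0.141. The difference of this pair thus lay within the range over all pairs but above its own noise, so whether both arrays hold 1 RNA is not settled. They entered as a single sample, and values with 6 separate arrays are given where they change a call, so there were 2 control replicates (n = 2) and 3 replacement replicates (n = 3). Cdh1 (E-cadherin) stood at 2204 to 2757 in the controls and at 1073 to 1357 in the replacement arrays, and no Cdh2 (N-cadherin) probe set exceeded 13.5. Whether these probe sets read the deleted part of Cdh1 or the introduced Cdh2 copy is not stated, so they check the labels only in part. The epithelial markers Epcam, Vil1 and Cdx2 were present on every array, with lowest intensities of 3207 for Epcam, 2768 for Vil1 and 730 for Cdx2. The whole list was not alike between groups or among controls. Of its 12 measured genes 1 was higher (Krt20, log2 difference 1.35, limma adjusted p = 0.0274) and none was lower. Its summed intensities were 33928.5 to 36145.7 in the controls and 33685 to 44061.4 in the replacement arrays. Cdx1 was at 119 in control 1 and at 255 and 293 in the other controls.

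Of the 10 genes, 4 were lower in the replacement samples (Cyp3a11, Cyp3a25, Ugt2b5 and Nr1i2) and 1 was higher (Cyp2c65) at a limma adjusted p under 0.05, and 5 did not pass. Over all 12994 genes tested, 4.66% were lower, 4.46% were higher and 9.12% passed in either direction. For 8 of the 10 genes control and replacement arrays did not overlap (6 lower and 2 higher), against 36.6% of all genes. The median log2 difference of the 10 was -0.67, against -0.02 over all genes. The 10 genes were picked with results of these arrays known, so these shares describe them and support nothing further. At least 1 probe set of each gene passed the filter, 3 or more of the 6 arrays at 16 or above, and 2 of the 3 Cyp2b10 probe sets did not.

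**Figure D1:**
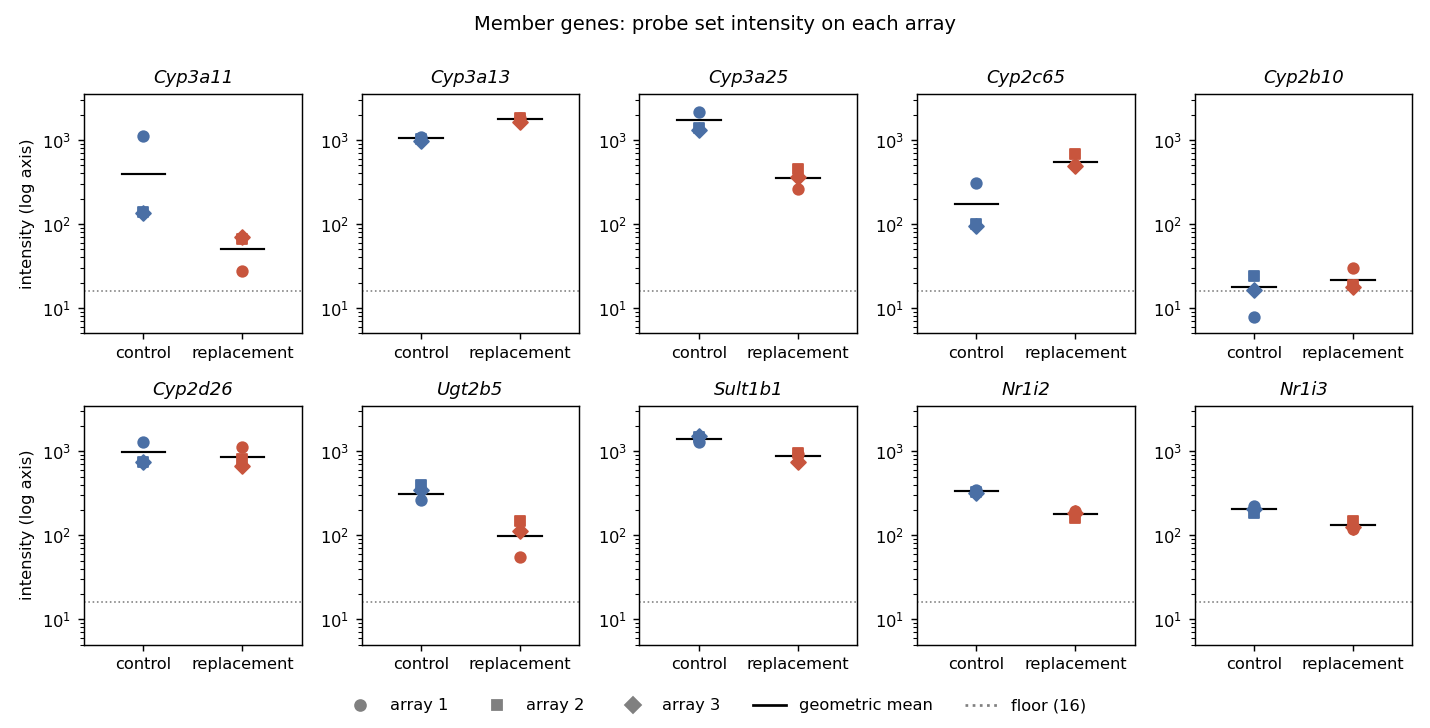
Probe set intensity of the 10 genes on each array (log axis), with control arrays in blue, replacement arrays in red, a symbol for each array number, a bar for the geometric mean of the replicates (control 2 and control 3 as 1) and a dotted line at the floor of 16. Control 1 stands far above the other controls for Cyp3a11 (1120 against 138 and 136). Cyp2b10 lies near the floor on all arrays, and Cyp3a11 comes down to 27.9 on replacement 1.

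Cyp3a25 had the firmest fall of the 10. This member of the Cyp3a family, whose enzymes oxidize steroids and many drugs, read 2173, 1391 and 1320 on the controls against 260.2, 451 and 368 on the replacement arrays. The lowest control array thus lay far above the highest replacement array, and the spread inside each group was small beside the gap between them. Replacement was 4.89-fold lower, a log2 difference of -2.29 (SE 0.312, n = 2 and 3, limma adjusted p = 0.00232). The difference was -1.95 without control 1 and -2.63 with control 1 as the only control. The call was lost in both fits, but 1 control replicate then remains and is assumed to vary like the others. Few of all genes pass in such fits.

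Cyp3a11, the best known Cyp3a enzyme of mouse liver and gut and a standard target of the pregnane X receptor, differed as much among controls as between groups. Its intensities were 1120, 138 and 136 in the control arrays and 27.9, 65.8 and 70.0 in the replacement arrays. Every replacement array lay below every control array, but control 1 was 8.16-fold above the mean of the other controls, a gap of 3.03 on the log2 scale. The log2 difference of the group means was -2.96 (SE 0.741, 95% interval -4.62 to -1.30), or 7.77-fold lower (limma adjusted p = 0.0380). It was -4.47 with control 1 as the only control and -1.44 with control 1 left out. The size of this fall thus depended on which control was used. Neither fit kept the call, but each left 1 control replicate, where few of all genes pass. The call was also lost without replacement 1 (-2.53, adjusted p = 0.0889), replacement 2 (-3.15, adjusted p = 0.0926) or replacement 3 (-3.19, adjusted p = 0.129), and with all 6 arrays as separate replicates (-2.45, adjusted p = 0.0514).

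Cyp3a13, a Cyp3a enzyme encoded away from the other Cyp3a genes, had the opposite sign. It stood at 1100, 1016 and 984 in the control arrays and at 1850, 1829 and 1626 in the replacement arrays, with no overlap and little spread in either group. The log2 difference was 0.75 (SE 0.227, 95% interval 0.24 to 1.26), and it did not pass over all genes (limma adjusted p = 0.0726). It passed under 4 of 19 alternatives, among them all 6 arrays as separate replicates (0.77, adjusted p = 0.0143) and the replicate number as a block (0.77, adjusted p = 0.0317). Cyp3a16 and Cyp3a44, also of this family, did not pass the filter, with highest intensities of 16.9 and 4.4.

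Cyp2c65, a Cyp2c enzyme that oxidizes fatty acids such as arachidonic acid, was the only one of the 10 called higher. Its intensities were 306, 101 and 94.6 in the control arrays and 505, 682 and 490 in the replacement arrays. The groups did not overlap, and control 1 was again the high control, 3.13-fold above the mean of the other controls. The log2 difference was 1.67 (SE 0.425, limma adjusted p = 0.0400), a 3.19-fold rise. The suffix of its only probe set marks it as one that may read related transcripts, so the reading is uncertain for Cyp2c65 alone. With control 1 as the only control the difference was 0.85, and without control 1 it was 2.50. Neither fit kept the call, but each left 1 control replicate, where few of all genes pass. Leaving out replacement 1, 2 or 3 ended the call too (1.74, 1.52 and 1.76, with adjusted p of 0.0640, 0.138 and 0.138).

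Cyp2d26 and Cyp2b10 showed no difference beyond the spread. Cyp2d26, one of several Cyp2d enzymes, was measured at 1292, 747 and 746 in the control arrays and at 1137, 803 and 661 in the replacement arrays, so the groups overlapped. Its log2 difference was -0.22 (SE 0.323, 95% interval -0.94 to 0.51, limma adjusted p = 0.743), and the sign turned without control 1 (0.18, adjusted p = 0.862). Cyp2b10, the standard target of the constitutive androstane receptor, lay close to the floor on its one kept probe set: 7.9, 23.8 and 16.6 in the controls and 29.9, 18.8 and 17.8 in the replacement arrays. The log2 difference was 0.27 (SE 0.288, 95% interval -0.37 to 0.92, limma adjusted p = 0.624), on values that the floor compresses. Its other probe sets reached at most 22.4 and 19.8, each on 1 array.

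**Figure D2:**
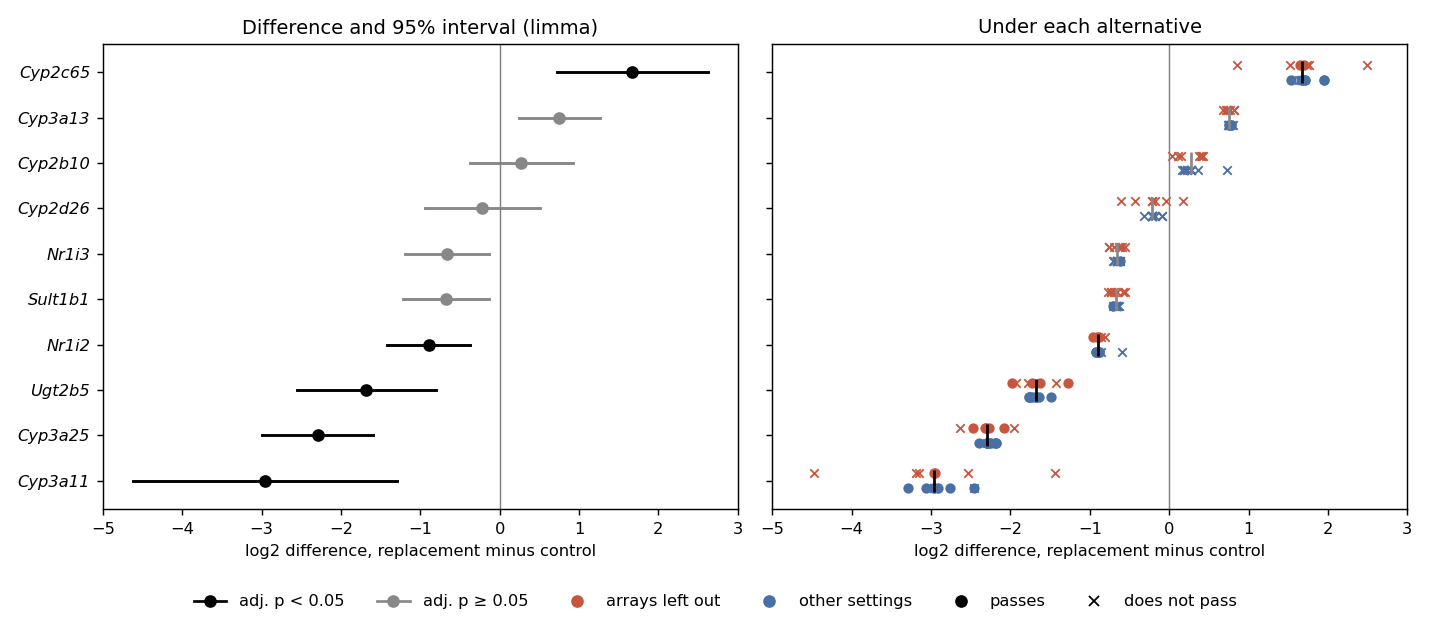
Left, log2 difference of each of the 10 genes, replacement minus control, with the 95% interval of the moderated fit, in black where the adjusted p was under 0.05 and grey where it was not. Right, the same difference under every alternative, in red with arrays left out and in blue with other settings, as a dot where it passed and a cross where it did not, beside a tick at the main value. Cyp3a11 runs from -4.47 to -1.44, whereas Nr1i3 stays between -0.76 and -0.56.

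Both conjugating enzymes had lower values in the replacement arrays, and Ugt2b5 passed the test. Ugt2b5, which joins glucuronic acid to phenols and steroids, stood at 263, 396 and 347 in the control arrays and at 55.8, 148 and 113 in the replacement arrays. It was 3.20-fold lower (log2 difference -1.68, SE 0.390, limma adjusted p = 0.0282). Here control 1 was the lowest control, so the controls were not ordered as they were for Cyp3a11. Replacement 1 was the lowest array for Ugt2b5 and Cyp3a11, as it was for Cyp3a25. The call was lost without control 1 (-1.93, adjusted p = 0.259), with control 1 alone (-1.43, adjusted p = 0.341) and without replacement 3 (-1.78, adjusted p = 0.107).

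Sult1b1, a sulfotransferase of phenols and thyroid hormones, stood at 1300, 1460 and 1523 on the controls and at 939, 951 and 742 on the replacement arrays. The groups did not overlap, yet the log2 difference of -0.67 (SE 0.241, 95% interval -1.22 to -0.13) did not pass over all genes (limma adjusted p = 0.119). It passed only with all 6 arrays as separate replicates (-0.71, adjusted p = 0.0289) among 19 alternatives.

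The nuclear receptors both had lower values, with controls that were close to each other. Nr1i2 was read by 2 probe sets. The brighter one gave 345, 330 and 322 in the control arrays and 195, 161 and 186 in the replacement arrays. This was 1.86-fold lower (log2 difference -0.90, SE 0.230, limma adjusted p = 0.0417). The dimmer one gave 191, 168 and 160 in the control arrays and 140, 148 and 147 in the replacement arrays. That is a log2 difference of -0.29 (SE 0.225), which did not pass in a fit of all 26664 kept probe sets (limma adjusted p = 0.557). Neither probe set had overlapping groups, but the sizes differed, and in that fit, where 4.04% of probe sets passed, the brighter one missed the threshold as well (adjusted p = 0.0830). The mean of the pair was -0.59 (adjusted p = 0.125). The Nr1i2 difference was -0.86 without control 1 and -0.94 with it as the only control. Few of all genes pass in these fits, which leave 1 control replicate, and Nr1i2 lost its call. Leaving out replacement 2 (-0.81, adjusted p = 0.135) or replacement 3 (-0.92, adjusted p = 0.120) ended it too.

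Nr1i3 gave 222, 182 and 203 in the control arrays and 119, 149 and 125 in the replacement arrays. All replacement arrays lay below all controls, and the log2 difference was -0.66 (SE 0.236, 95% interval -1.19 to -0.13), which did not pass over all genes (limma adjusted p = 0.121). As for Sult1b1, it passed only with all 6 arrays as separate replicates (-0.63, adjusted p = 0.0433).

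Other transcripts split the arrays inside the groups, and they are given here because Cyp3a11 and Cyp2c65 split the controls too. These transcripts were chosen from the marker lists after their values were seen. Onecut2, a factor of the proximal small intestine, was at 236 in control 1 and at 48.6 and 42.6 in the other controls, and at 238, 183 and 154 in the replacement arrays. Fabp6, the bile acid binding protein of the ileum, was at 0.3 in control 1, at 808 and 824 in the other controls and at 267, 287 and 686 in the replacement arrays. Control 1 was thus the only array with Fabp6 under the floor. Other markers of these lists did not all set control 1 apart. The ileal Slc10a2 was under the floor in every control (0.8, 1.3 and 2.1) and at 18.7, 66.5 and 38.2 in the replacement arrays. The proximal Adh6a was high in control 1 (291 against 103 and 105 in the other controls), whereas Rbp2 was not (3817 against 3508 and 3923). Over the whole list of proximal markers, 9 of 9 were measured, 2 were higher (Pdx1 and Adh6a) and none was lower, with summed intensities of 12764 to 13614 in the controls and 8746 to 13746 in the replacement arrays. Of the ileal markers 8 of 8 were measured and 2 were lower (Cubn and Slc51b), with sums of 9309 to 14209 and of 8192 to 11553. Of the colon markers 3 of 7 on the array were measured, 2 were lower (Aqp8 and Slc37a2) and none was higher. Aqp8 stood at 444.5 to 593.3 in the controls and at 48 to 62.3 in the replacement arrays (log2 difference -3.25, limma adjusted p = 1.32e-04). Muc3 did not pass (0.86, adjusted p = 0.108). The sums were 1379 to 1875 and 1517 to 2444.

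Pancreatic acinar markers, 6 of 6 on the array measured and none called, summed to 1892 in control 1, 695 and 741 in the other controls, and 451, 3770 and 2744 in the replacement arrays. Cpa1, a digestive enzyme of that list, was at 0.5 and 0.9 in control 2 and control 3 and at 1.1 in replacement 1, and at 123 to 547 on the remaining arrays. Xist, read from the inactive X chromosome, divided the arrays in the same way: 2305, 440 and 578 in control 1, replacement 2 and replacement 3 and 27.8 to 37.5 on the others, while the Y-linked Eif2s3y ran opposite. The part of region, pancreas and sex in the Cyp3a11 and Cyp2c65 differences was not tested beyond the values within each class of arrays. Among the arrays with high Xist (1 control, 2 replacement) the log2 difference was -4.04 for Cyp3a11 and 0.92 for Cyp2c65, and among the others (2 control, 1 replacement) it was -2.30 and 2.37. Cyp3a25 gave -2.42 and -2.38, Ugt2b5 -1.03 and -2.73, Nr1i2 -0.995 and -0.74, and Nr1i3 -0.70 and -0.69. Sult1b1 gave -0.63 and -0.67, Cyp3a13 0.65 and 0.89 and Cyp2b10 0.19 and 0.59, whereas Cyp2d26 had opposite signs (-0.83 and 0.61). With that class as a block the same 5 genes passed. The limma adjusted p was 2.79e-04 for Cyp3a11, 2.13e-04 for Cyp3a25, 0.0112 for Ugt2b5, 0.0160 for Cyp2c65 and 0.0475 for Nr1i2. Each class then held only 1 control replicate, and it matched the split by Cpa1. The block thus cannot separate sex, pancreas and other differences between these arrays, and these p-values rest on few replicates.

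**Figure D3:**
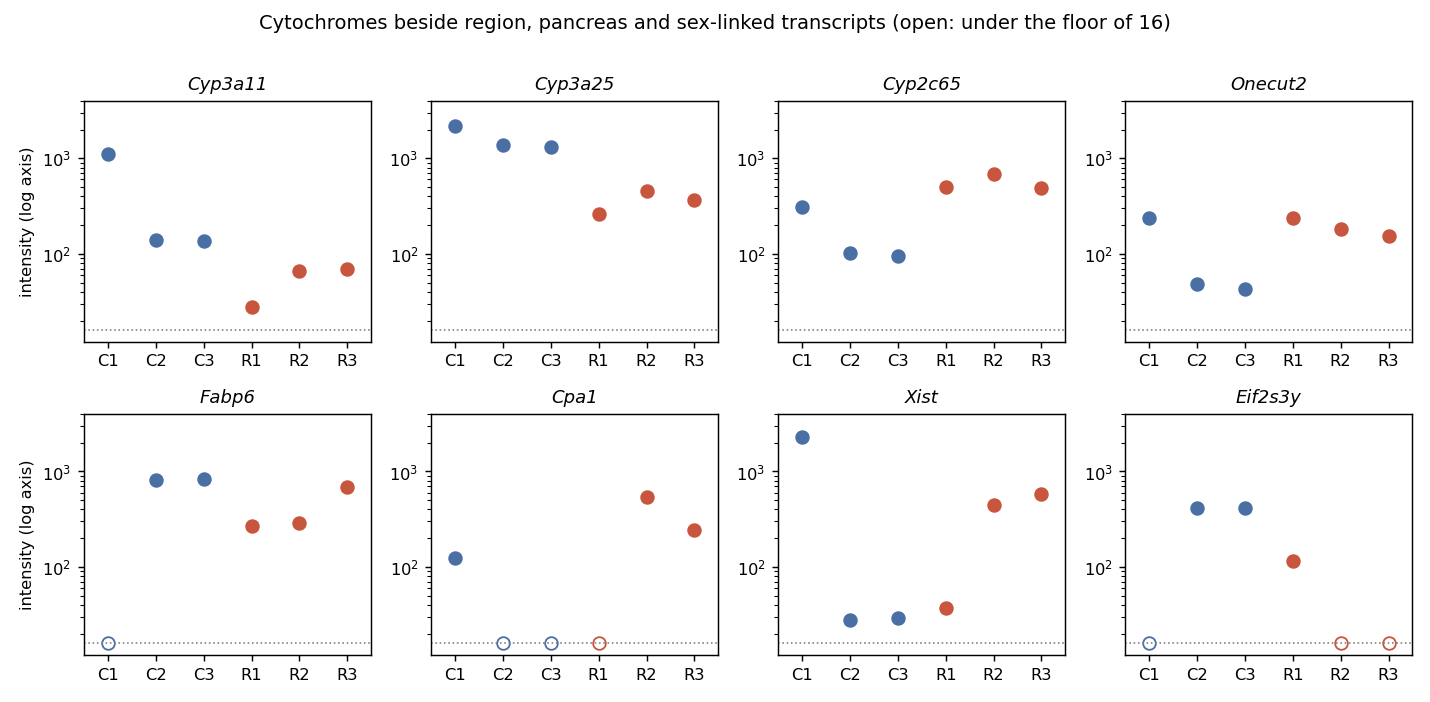
Intensity (log axis) of 3 cytochromes, the proximal factor Onecut2, the ileal Fabp6, the pancreatic Cpa1 and the sex-linked Xist and Eif2s3y on each array, controls (C1 to C3) in blue and replacement arrays (R1 to R3) in red, with open symbols for values under the floor of 16, drawn at the floor. Control 1 is high for Cyp3a11 and Onecut2 and lacks Fabp6, and control 1, replacement 2 and replacement 3 share Cpa1 and Xist signal.

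The liver is the organ with most of these enzymes. Of the hepatocyte markers, some were near or under the floor: Alb reached at most 19.1, Ahsg 3.3 and Hp 2.6. Fga reached 81 but did not pass the filter. Others were present on every array, among them Serpina1b (228 to 386), Hpd (73.6 to 118) and Ttr (639.2 to 3912.5). Of the hepatocyte list 8 of 14 on the array were measured and none was called, and its summed level, 6491 to 8111 in the controls and 3897 to 5916 in the replacement arrays, came mainly from Cps1, a urea cycle enzyme that gut epithelium also makes, and Ttr. Leukocyte markers summed to 2743 to 3073 in the controls and 1102 to 1764 in the replacement arrays. Of 6 measured, 1 was lower (Csf1r, 2427 to 2504 against 738 to 1271), and the sum of the other 5 overlapped between the groups (289 to 646 and 335 to 493). Cd3e, Cd3g and Cd79b reached at most 12.6, whereas Cd8a (51.7 to 83.3) and Lyz2 (142.5 to 456.4) were present on every array. Ptprc was at 56.4 in control 1 and at 11 and 12.4 in the other controls. Fibroblast and muscle markers (8 of 11 measured) and endothelial markers (6 of 7) gave no call, but both sums were highest in control 1. Fibroblast and muscle markers summed to 1386 in control 1, 352 and 367 in the other controls and 564 to 633 in the replacement arrays. Endothelial markers summed to 284 in control 1, 147 and 152 in the other controls and 132 to 200.2 in the replacement arrays. The part of these cell types in the differences was not tested. In bulk samples, fewer cells of a type and less RNA per cell cannot be told apart.

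Other genes of drug metabolism are given by list. Of 20 other measured P450s of families 1 to 3, only Cyp2c68 passed, with 747, 919 and 930 in the controls and 404, 461 and 323 in the replacement arrays (log2 difference -1.08, SE 0.255, limma adjusted p = 0.0294). The median of this list was 0.01. Among those that did not pass, Cyp2j6 had 0.94 (adjusted p = 0.0522) and Cyp2s1 0.77 (adjusted p = 0.0665). Of 30 other enzymes of oxidation and hydrolysis 2 were higher and 3 lower, with a median of -0.13. Akr1c14, an aldo-keto reductase of steroids, fell by 2.61 on the log2 scale (SE 0.382) and Maob, a monoamine oxidase, by 2.25 (SE 0.253), while the carboxylesterase Ces2b rose by 1.99 (SE 0.385).

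None of 8 glucuronidation genes passed, with a median of 0.11. Ugt2a3 had -0.87 (SE 0.310, limma adjusted p = 0.119) and Ugdh, which makes the sugar donor, 0.23. Of 9 sulfation genes Papss2 alone passed. This enzyme, which makes the sulfate donor that Sult1b1 uses, rose from 640, 618 and 597 in the controls to 2188, 1857 and 2074 (log2 difference 1.71, SE 0.228, limma adjusted p = 0.00208). Its sister Papss1 had -0.67 (adjusted p = 0.184) and the sulfotransferase Sult1d1 -0.79 (adjusted p = 0.0975), and the list median was 0.10. Among 7 genes of acetyl, methyl and glycine conjugation Nat8 (-1.77, SE 0.338) and Glyat (-1.64, SE 0.313) were lower and none was higher, with a median of -0.14.

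Of 25 nuclear receptors, partners and regulators, 1 was lower and 1 higher, with a median of -0.18. Nr0b2, a small repressor induced by bile acid signals, was at 280.1, 209.6 and 195 in the controls and at 87.5, 54.6 and 39.0 in the replacement arrays (log2 difference -2.06, SE 0.345, limma adjusted p = 0.00673). Foxa1, a pioneer factor of gut and liver genes, rose by 1.27 (SE 0.295, adjusted p = 0.0280). Rxra, the partner of both receptors, had -0.14 (SE 0.236), Ahr, the receptor for dioxin-like compounds, 0.37 (SE 0.245) and Hnf4a 0.07 (SE 0.245), and none of these passed.

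**Figure D4:**
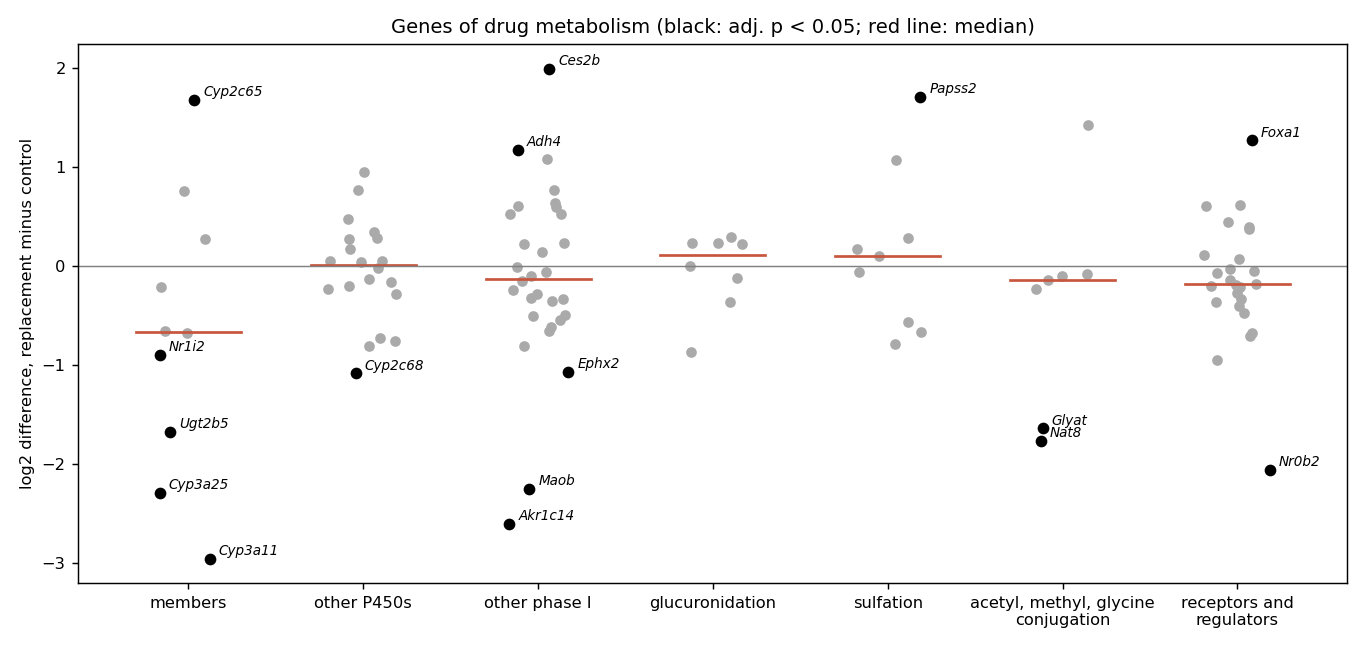
Log2 differences, replacement minus control, of the 10 genes (labelled members) and of the measured genes of 6 other lists of drug metabolism, 1 dot per gene (spread sideways for legibility), black and named where the adjusted p was under 0.05, with a red line at the list median. The 10 genes have the lowest median (-0.67), and the other medians lie between -0.18 and 0.11. All these genes were chosen with earlier results of these arrays known, so this rank is a description only.

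The genes whose pattern was most like that of Cyp3a11, by Pearson r of log2 values over the 5 replicates among 729 genes with a range of at least 2 on the log2 scale, were Mtx3 (r = 0.992), Leng8 (0.981), Slc37a2 (0.979), Gm6958 (0.967) and Chka (0.951). All were highest in control 1, and all except Leng8 had every replacement array below every control array. For Slc37a2, also on the list of colon markers, the intensities were 125, 65.3 and 67.2 in the controls and 28.4, 35.7 and 37.8 in the replacement arrays. For Chka, a choline kinase, they were 1613, 860.1 and 861 against 404, 468 and 401. With 5 points this is a description only.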

How the data were processed

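RNA of 3 control and 3 replacement samples was measured on 6 Affymetrix arrays. Values are linear intensities of probe sets as deposited, scaled by the authors to a trimmed mean of 100 (without 2% of values at each end). GCRMA and limma are named in the submitters' processing notes with no role, and how probes were summarised is not stated there. Intensities were floored at 16 and log2 was taken, which compresses differences of dim transcripts. Probe sets with at least 3 arrays at 16 or above were kept, 26664 in all. Of 34945 probe sets with 1 gene symbol, the kept one with the highest mean stood for its gene, which gave 12994 genes. Control 2 and control 3 were averaged. limma 3.58.1 in R 4.3.3 (lmFit, eBayes) was fitted to all genes (2 control, 3 replacement replicates), and p-values were adjusted over them by Benjamini-Hochberg; SEs are of that fit. The script was tested on simulated data. The 10 genes and the lists were chosen with earlier results of these data known. Named are all 10, up to 3 genes with the smallest p of each list, marker genes, and the 5 most like Cyp3a11; others were chosen after their values were seen. For arrays no read depth exists, and their number limits the precision. Alternatives were other normalizations, filters, floors, probe set rules, eBayes options, array weights, blocks and left-out arrays. Promoter windows matched all 10 genes by symbol. Figures were drawn with matplotlib 3.10.9.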

Additional observations from a re-analysis of the deposited data

How the results depend on the processing

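The fit called 580 higher and 605 lower genes. These became 1118 and 1234 with all 6 arrays as separate replicates, 70 and 92 with no filter, and 884 and 926 with array weights. The lower genes were 389 with no floor and 384 with each array scaled to its median. With arrays left out the counts ran from 3 to 827 higher and from 1 to 833 lower, and were 8 and 3 without control 1. The cause was not tested, except that fewer samples remained. With the replicate number as a block there were 994 and 1108. Same-numbered arrays did not deviate together (correlations of -0.02, 0.00 and -0.05 over genes). This gave no sign of pairing by number, but so few arrays cannot exclude it. Of the 10 genes only Cyp2d26 changed sign under any alternative (-0.43 to 0.18 with single arrays left out, 0.18 without control 1, none called). Of 19 alternatives, 16 kept the call of Cyp3a25, 13 that of Ugt2b5, 10 those of Cyp2c65 and Nr1i2 and 9 that of Cyp3a11. With no filter, which adds dim genes, all 5 calls were lost, with adjusted p from 0.0875 to 0.368. Removing the floor ended 4 of the 5 calls (Cyp3a11 0.0814, Cyp2c65 0.0795, Ugt2b5 0.0602 and Nr1i2 0.0662, as adjusted p), and so did every kept probe set as a feature (0.104, 0.102, 0.0798 and 0.0830 in that order). Cyp3a11 was lost with trend and robust eBayes options (0.223) and with 6 separate arrays (0.0514), which called Cyp3a13 (0.0143), Sult1b1 (0.0289) and Nr1i3 (0.0433). Quantile normalization ended the call of Cyp2c65 (1.63, adjusted p = 0.0525) and scaling to array medians that of Nr1i2 (-0.86, adjusted p = 0.107). Cyp3a13 passed under 4 of 19, Sult1b1 and Nr1i3 under 1 each. Dim signal limits Cyp2b10, which the filter at 64 removed.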
